A study of Homo sapiens with 6 samples.

Results

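Splicing kinases add phosphate to the arginine-serine repeats (RS domains) of splicing factors, and RS-domain proteins gather in nuclear speckles. The genes described here are 7 such kinases (*PRP4K*, *CLK1*, *CLK2*, *CLK3*, *CLK4*, *SRPK1* and *SRPK2*) and 3 RS-domain speckle proteins (*PPIG*, *PNISR* and *SON*). They were chosen by symbol, 10 of the 20381 genes in the deposited table, and each symbol matched a single row. All 10 passed the filter on low counts. The choice was made with the PON1-OE against NC values of these libraries known. The differences of the 10 genes between the groups are therefore given as a description and not as a test.

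RNA-seq was performed on poly(A) RNA of HCCLM3, a human hepatocellular carcinoma (HCC) cell line. In 3 libraries the cells stably overexpressed paraoxonase 1 (PON1-OE), from a lentiviral vector holding the *PON1* coding sequence, and 3 libraries were a negative control (NC), an empty lentivirus according to the design text of the series. Both groups were the same line, and the paper describes selection with puromycin. The sources used here do not say whether the 3 libraries of a group were separate cultures or infections, so that the SD measures the spread between libraries, which may be technical. They also differ on serum content and on whether lysis followed a recent transfection or a stable selection.

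The libraries held 15706672 to 17948383 estimated counts. *PON1* had 0, 2 and 3 counts in NC and 155, 181 and 167 in PON1-OE. Of 12 hepatocyte and liver cancer markers, the transcription factor *HNF4A* and the keratins *KRT8* and *KRT18* were expressed, while *ALB*, *AFP*, *APOA1*, *TTR* and *SERPINA1* averaged under 1 CPM (counts scaled by library size) in both groups. Of 11 markers of other cell types 9 averaged under 1 CPM, and *PTPRC*, *LYZ*, *CD3E* and *HBB* had no count in any library. The exceptions were *CD68* and *PECAM1*. The summed level of these 11 was 220 to 240 CPM in NC libraries and 238 to 264 CPM in PON1-OE. It was almost all *CD68*, and its part in the values below was not tested.

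In background, SR proteins select exons and splice sites through RNA-binding domains and RS domains. SRPK1 and SRPK2 act on RS domains mainly in the cytoplasm and promote nuclear import, whereas the CLK kinases act in the nucleus and release SR proteins from speckles. PRP4K (formerly PRPF4B) associates with the U4/U6.U5 tri-snRNP, the particle that joins the spliceosome before activation, and phosphorylates its proteins PRPF6 and PRPF31. PPIG is a nuclear cyclophilin with an RS-rich tail, PNISR binds the speckle protein pinin, and SON is a large scaffold of the speckle.

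*PPIG* and *PRP4K* were lower in PON1-OE by 19.5% and 18.9%, and *PNISR* and *CLK4* by 14.2% and 12.2%. The other 6 genes differed by less than 4% on average. The groups of libraries did not overlap in 5 of the 10 genes, *PPIG*, *PRP4K*, *PNISR*, *CLK4* and *SON*, each with every PON1-OE library below every NC library. This was the arrangement of 7.74% of the 11958 genes tested, and the opposite one that of 8.32%, which none of the 10 genes had. No gene of the 10 reached the 1.5-fold change that the study's methods set as a threshold (6 genes of the table did with an adjusted p under 0.05, 0.0502%). In a bulk sample, fewer cells with a transcript and less of it per cell cannot be told apart.

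**Figure D1:**
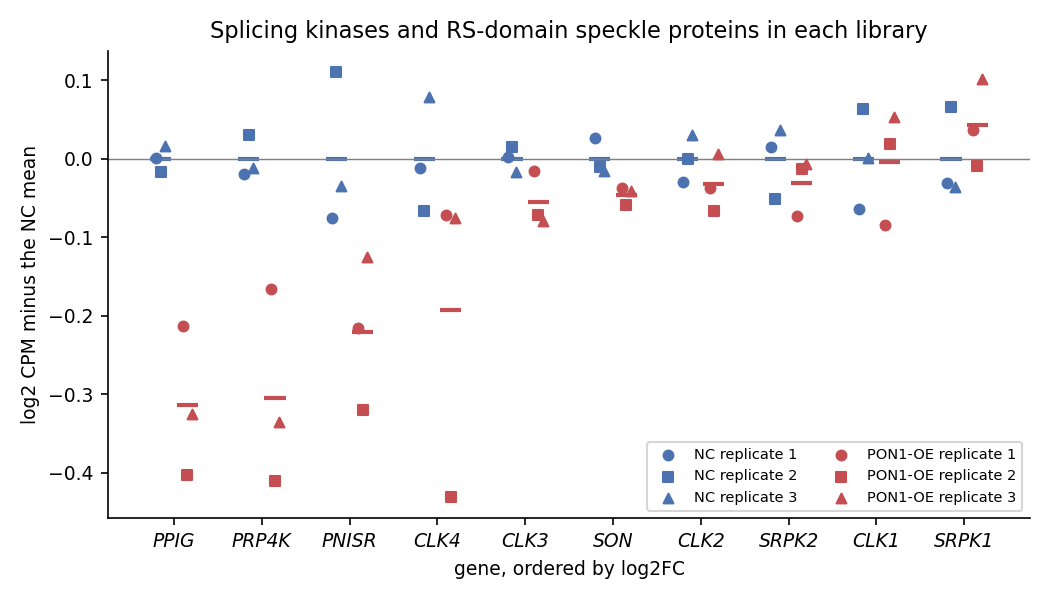
Level of each gene in each library as log2 CPM minus the mean of the 3 NC libraries (y axis), with the genes ordered by log2FC (x axis). Points are libraries and short bars are group means. All PON1-OE points of PPIG, PRP4K, PNISR and CLK4 lie below all NC points of the same gene, and the points of the genes to the right lie near 0.

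Promoter sequence is shown for *PRP4K* and *PNISR*, which were lower in PON1-OE, and for *SON*, which differed little, so that their starts can be compared. The sequences are the 250 bases before the RefSeq start on GRCh38.p14, 5′ to 3′ along the gene. They lie at chr6:4021050-4021299 (plus strand), chr6:99425309-99425558 (minus strand) and chr21:33542788-33543037 (plus strand). GENCODE v29 puts the gene starts elsewhere, at 4021267 for *PRP4K*, 99425331 for *PNISR* and 33542618 for *SON*. By that annotation the *PRP4K* and *PNISR* windows reach into the gene and the *SON* window lies wholly inside it. Capitals mark matches, on either strand, to 9 motifs. The core bound by ETS factors was searched as CGGAAG, the box bound by NF-Y as CCAAT and the box bound by SP1 as GGGCGG. The E-box was searched as CACGTG and the TATA box as TATAAA. The remaining motifs were the cyclic AMP response element, the YY1 core, the NRF1 site and the CGCG element.
PRP4K: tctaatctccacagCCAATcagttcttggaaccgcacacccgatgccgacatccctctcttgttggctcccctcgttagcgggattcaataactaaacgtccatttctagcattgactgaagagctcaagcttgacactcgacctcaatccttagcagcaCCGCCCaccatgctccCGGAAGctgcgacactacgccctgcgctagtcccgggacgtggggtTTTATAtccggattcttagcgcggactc
PNISR: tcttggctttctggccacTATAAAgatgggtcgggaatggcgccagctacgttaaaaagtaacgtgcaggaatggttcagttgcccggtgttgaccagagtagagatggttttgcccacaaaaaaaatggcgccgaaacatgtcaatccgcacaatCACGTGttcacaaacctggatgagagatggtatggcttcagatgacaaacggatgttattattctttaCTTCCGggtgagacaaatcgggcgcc
SON: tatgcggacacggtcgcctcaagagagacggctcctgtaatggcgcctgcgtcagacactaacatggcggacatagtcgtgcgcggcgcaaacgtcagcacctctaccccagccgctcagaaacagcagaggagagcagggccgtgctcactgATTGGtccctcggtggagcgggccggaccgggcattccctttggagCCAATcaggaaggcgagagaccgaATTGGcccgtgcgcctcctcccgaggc
The ETS core occurred at −74 in *PRP4K* and at −26 in *PNISR*, counted from the start, and was not in the *SON* window. It also occurred in *CLK2* (−129) and in 1 of 4 windows of *SRPK2* (−194), which differed little between the groups. It was not in the windows of *CLK4*, *CLK1*, *CLK3* or *SRPK1*. A relation between the motif and the log2FC was not tested. The ETS core was found in 16.5% of the 35116 RefSeq promoter windows of this length. TATAAA, found in 10.7% of windows, lay at −28 in *PRP4K* as its reverse complement and at −232 in *PNISR*. CCAAT, found in 32.0% of windows, occurred once in *PRP4K*, 3 times in *SON* and not in *PNISR*. GGGCGG (42.6% of windows) occurred once in *PRP4K*, and CACGTG (6.34%) once in *PNISR*. The other 4 motifs were in none of these 3 windows. A match describes letters only. A promoter was found for 9 of the 10 genes, all but *PPIG*.

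Gene positions are those of GENCODE v29 (GRCh38). *PRP4K* (ENSG00000112739, plus strand of chromosome 6, 4021267 to 4064983) was measured at 48.0, 49.6 and 48.2 CPM in NC replicates 1 to 3 and 43.3, 36.5 and 38.5 CPM in PON1-OE replicates 1 to 3, after TMM normalization. The NC libraries lay close together, and PON1-OE replicate 1 was nearest to them. NC averaged 48.6 ± 0.909 CPM and PON1-OE 39.4 ± 3.48 CPM (SD, 3 libraries each), with a fitted log2 fold change (log2FC) of −0.30 (standard error 0.068). This was the 389th lowest log2FC of all genes tested.

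*CLK1* to *CLK4* encode the CDC-like kinases. *CLK4* (ENSG00000113240, minus strand of chromosome 5 from 178602664 to 178630615) had 7.81, 7.52 and 8.33 CPM in NC libraries and 7.49, 5.82 and 7.47 CPM in PON1-OE. The groups were apart by a narrow margin, and PON1-OE replicate 2 was far below the other 5 libraries. The log2FC was −0.19 (standard error 0.14), and it was −0.075 without PON1-OE replicate 2. *CLK4* was the least abundant of the 10 genes, with a lowest count of 93, at which counting error alone is 10.4%.

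*CLK1* (ENSG00000013441, minus strand of chromosome 2 from 200853009 to 200864744) had 47.5, 51.9 and 49.7 CPM in NC libraries and 46.8, 50.3 and 51.5 CPM in PON1-OE. The groups overlapped. Its log2FC was −0.0048 (standard error 0.062), and the sign changed without NC replicate 2 (0.028), without PON1-OE replicate 1 (0.038) and with GC content and length taken out (0.0054). *CLK2* (ENSG00000176444, minus strand of chromosome 1 from 155262868 to 155278491) was at 34.1 ± 0.703 CPM in NC libraries and 33.3 ± 0.857 CPM in PON1-OE, a log2FC of −0.033 (standard error 0.067). *CLK3* (ENSG00000179335, plus strand of chromosome 15 from 74598500 to 74645414) was at 83.2 ± 0.915 and 80.1 ± 1.96 CPM, a log2FC of −0.055 (standard error 0.049). For both genes the ranges of the groups overlapped.

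The SR protein kinases were the kinases with the highest counts. *SRPK1* (ENSG00000096063, minus strand of chromosome 6 from 35832966 to 35921342) had 112, 120 and 111 CPM in NC libraries and 117, 114 and 123 CPM in PON1-OE. It was the only gene of the 10 with a log2FC above 0, at 0.043 (standard error 0.047), and the groups overlapped. It was also the only gene of the 10 with values that were not whole numbers, 4 of 6. *SRPK2* (ENSG00000135250, minus strand of chromosome 7 from 105110704 to 105399308) had 145, 138 and 147 CPM in NC libraries and 136, 142 and 142 CPM in PON1-OE, a log2FC of −0.031 (standard error 0.043). The spread within NC was wider than the difference between the groups for both genes.

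*PPIG* (ENSG00000138398, plus strand of chromosome 2, 169584340 to 169641406) was measured at 39.0, 38.5 and 39.4 CPM in NC libraries and 33.6, 29.5 and 31.1 CPM in PON1-OE. The NC libraries differed by under 1 CPM, and PON1-OE replicate 1 was again the highest and replicate 2 the lowest of its group. NC averaged 39.0 ± 0.438 CPM and PON1-OE 31.4 ± 2.09 CPM, with a log2FC of −0.31 (standard error 0.069), the lowest of the 10 genes.

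*PNISR* (ENSG00000132424, minus strand of chromosome 6 from 99398051 to 99425331) had 37.1, 42.2 and 38.1 CPM in NC libraries and 33.6, 31.3 and 35.8 CPM in PON1-OE. The gap between the lowest NC and the highest PON1-OE library was small beside the range within NC. Its log2FC was −0.22 (standard error 0.073), and −0.16 without NC replicate 2, the library with the highest value. *SON* (ENSG00000159140, plus strand of chromosome 21 from 33542618 to 33577481) had 251, 245 and 244 CPM in NC libraries and 240, 236 and 239 CPM in PON1-OE. The groups did not overlap, but the means were only 3.15% apart, with a log2FC of −0.046 (standard error 0.036).

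By edgeR's quasi-likelihood test, 81 genes had a Benjamini-Hochberg adjusted p below 0.05, and 2 of the 10 genes (*PPIG* and *PRP4K*) were among them, while *PNISR* was the only further gene with an unadjusted p under 0.05. Of all genes tested, 0.677% had an adjusted p under the threshold (0.176% lower and 0.502% higher in PON1-OE) and 11.1% an unadjusted one. Nothing is read from these counts, since the genes were chosen on this contrast. The count of 2 stayed 2 without PON1-OE replicate 1 and was 0 without any other single library (NC replicate 1, 2 or 3, PON1-OE replicate 2 or 3) and in DESeq2. With single libraries left out, the log2FC stayed below 0 but ranged from −0.36 to −0.27 for *PPIG* and from −0.37 to −0.25 for *PRP4K*. In both genes the value nearest to 0 came without PON1-OE replicate 2 and the farthest without PON1-OE replicate 1.

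**Figure D2:**
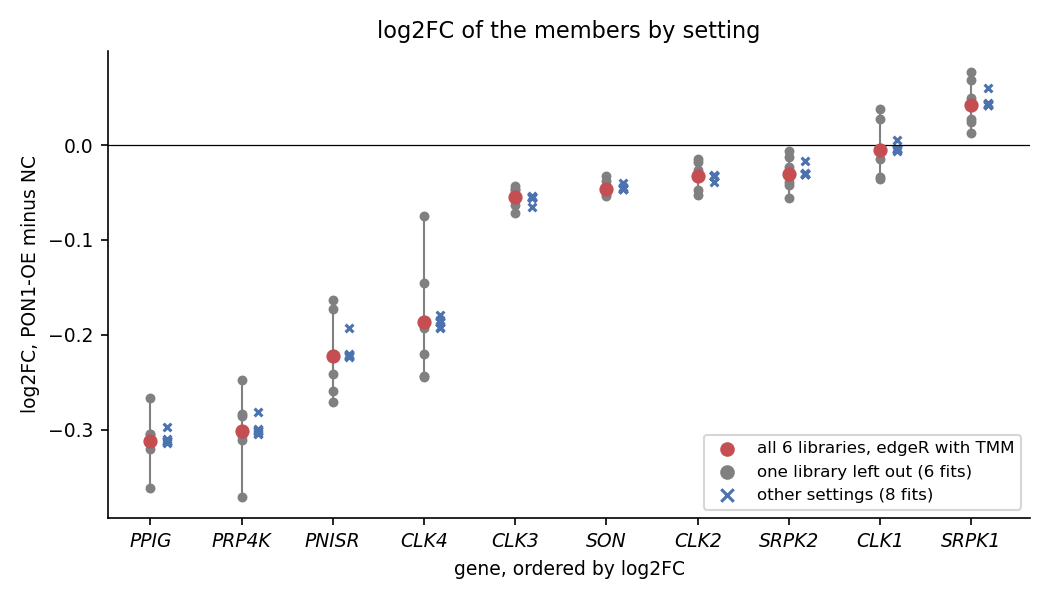
Fitted log2FC of each gene (y axis, PON1-OE minus NC) with all 6 libraries (red), with each library left out in turn (grey points joined by a bar) and under 8 other settings (crosses). CLK1 lies on both sides of 0, SRPK1 stays above 0, and every other gene stays below 0 in all fits shown. CLK4 has the widest range.

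To ask whether the genes moved together, log2 CPM was set against the mean of the gene's own group. This deviation does not use the contrast, but the choice of the genes did. A low value in 1 PON1-OE library also lowers a gene's log2FC. A dip shared in such a library is therefore no separate result. In NC, 4, 5 and 5 of the 10 genes were above their group mean in replicates 1, 2 and 3, with medians of −0.016, 0.0071 and −0.0054. No NC library was high or low for the genes as a whole. In PON1-OE the numbers were 6, 2 and 7, with medians of 0.0065, −0.043 and 0.032. Over all genes tested, the medians of the 6 libraries were −0.00071 to 0.0025.

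PON1-OE replicate 2 was the library in which most genes were below their group mean. *PPIG*, *PRP4K*, *PNISR* and *CLK4*, singled out after their values were seen, were at −0.089, −0.11, −0.100 and −0.24 there. In PON1-OE replicate 1 the same genes were at 0.10, 0.14, 0.0041 and 0.12. In PON1-OE replicate 3 they divided, with *PNISR* and *CLK4* above the group mean and *PPIG* and *PRP4K* below it. They also divided in NC. In NC replicate 2, *PPIG*, *PRP4K*, *PNISR* and *CLK4* were at −0.017, 0.031, 0.11 and −0.067. In NC replicate 3 these values were 0.016, −0.012, −0.035 and 0.079, and in NC replicate 1 they were 0.00082, −0.019, −0.075 and −0.012. The other 6 genes stayed between −0.080 and 0.058 in PON1-OE. With 3 libraries in a group no correlation was computed. A low value in PON1-OE replicate 2 was not particular to the members. Among the listed genes described below, *SCAF11* (159, 138 and 142 CPM in PON1-OE replicates 1 to 3) and *PPP1CB* (197, 180 and 201 CPM) were also lowest there. Others were highest there, such as *U2AF2* (477, 515 and 467 CPM). The part of GC content in these deviations was not tested.

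**Figure D3:**
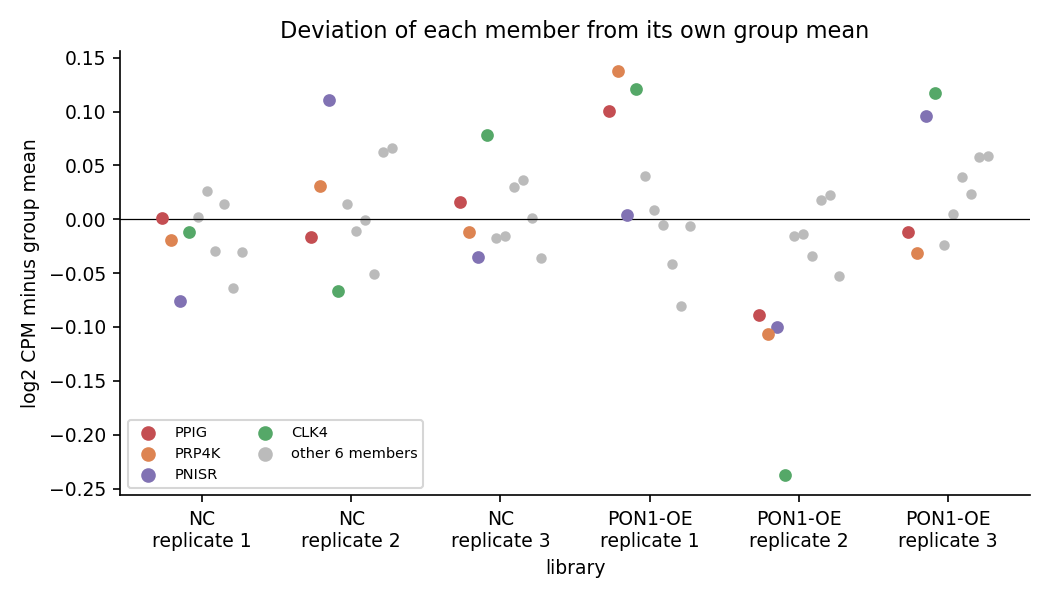
Deviation of log2 CPM from the gene's own group mean (y axis) in each of the 6 libraries (x axis), 1 point per gene. PPIG, PRP4K, PNISR and CLK4 (colored) all lie below 0 in PON1-OE replicate 2, CLK4 the farthest, while the other 6 members (grey) stay near 0. In NC the colored points lie on both sides of 0. The colored genes were singled out after their values were seen.

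The gene whose profile over the 6 libraries was nearest to that of *PRP4K* was *PPIG*, another member. The root mean square difference of their log2 CPM, centered on each gene's mean, was 0.031. Among the members, *PNISR* (0.095) and *CLK4* (0.11) followed, and *CLK1* and *SRPK1* (0.19 each) were the farthest. Many genes outside the members were nearer than these. Placed among the other genes with at least 10 CPM, *PNISR* would rank 114th and *CLK4* 314th. Among 8798 other genes with at least 10 CPM the nearest were *RASA2* and *PRDM10* (0.046 each), *EPC2* (0.056), *ESCO1* (0.057) and *SLC36A4* (0.059). All 5 were lower in PON1-OE on average, which the measure itself favors because *PRP4K* was lower. This likeness describes 6 libraries and includes the difference between the groups, on which the members were chosen. The near match of *PPIG* and *PRP4K* is therefore no separate result.

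Levels between genes were compared per kilobase, as counts divided by the median length of the GENCODE v29 basic transcripts and scaled to the same sum in each library. On this scale, over all 6 libraries, *SRPK2* (72.9 ± 1.91, SD, n = 6) and *CLK3* (68.7 ± 2.36) were the highest, followed by *SON* (59.5 ± 1.65), *CLK1* (49.98 ± 2.17) and *SRPK1* (48.8 ± 2.18). *CLK2* (29.9 ± 0.913), *PPIG* (25.9 ± 3.36), *PRP4K* (18.8 ± 2.47) and *PNISR* (13.4 ± 1.496) came next, and *CLK4* was lowest (7.195 ± 0.861). The ranges of 5 neighboring pairs overlapped, *SRPK2* with *CLK3*, *CLK1* with *SRPK1*, *CLK2* with *PPIG*, *PPIG* with *PRP4K* and *PRP4K* with *PNISR*. The median of the 11891 tested genes with a length was 20.3. The 4 genes with the lowest log2FC thus also had the lowest levels per kilobase of the 10. This order depends on the lengths used. In CPM, *CLK2* (34.1 in NC) was below *PRP4K* (48.6), *PNISR* (39.1) and *PPIG* (39.0). Within the CLK family *CLK3* was 9.55-fold above *CLK4*.

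**Figure D4:**
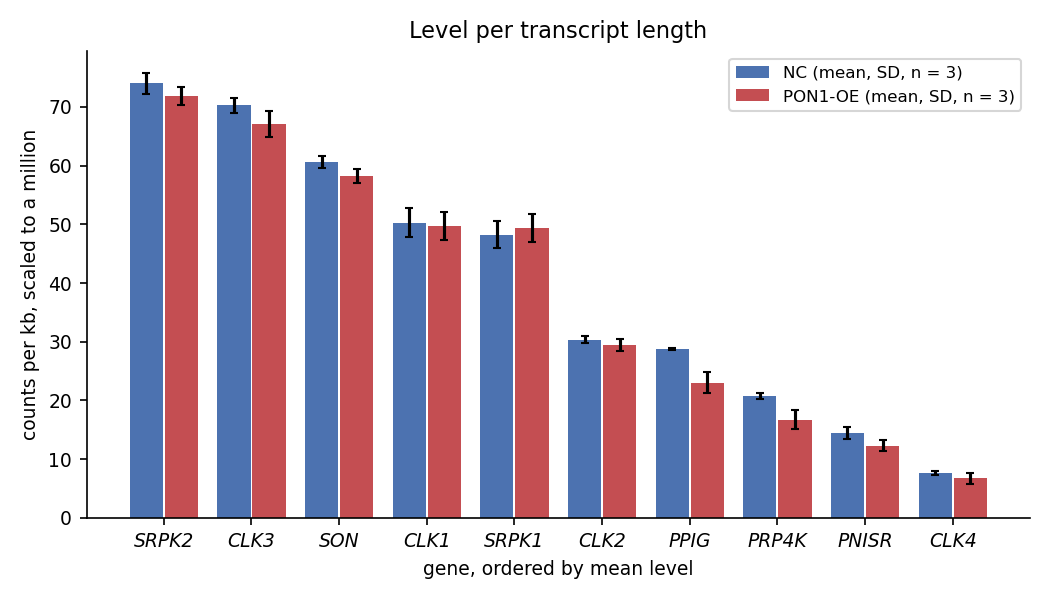
Counts per kilobase of transcript, scaled to the same sum in each library (y axis, from 0), for each gene in NC and PON1-OE (bars are means and whiskers SD, n = 3 each). The level falls from SRPK2, above 70, to CLK4, near 7, and the 4 genes at the right are those with the lowest log2FC.

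GC content, which the choice did not use, ran from 36.9% to 58.1% over the 10 genes. The 4 genes with the lowest log2FC had a GC content of 36.9% (*PNISR*), 37.4% (*CLK4*), 39.1% (*PPIG*) and 39.4% (*PRP4K*). *CLK1* was the fifth under 40%, at 39.2%, and had a log2FC near 0. Of all genes tested with a sequence, 11.6% were under 40%. Those genes had a median log2FC of −0.026, and 58.8% of them were lower in PON1-OE, against 51% of all genes. With GC content and transcript length taken out, the log2FC was −0.30 for *PPIG*, −0.28 for *PRP4K*, −0.19 for *PNISR* and −0.18 for *CLK4*. In the main fit the values of these genes were −0.31, −0.30, −0.22 and −0.19. The part of GC content in these differences was not tested.

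GENCODE v29 lists 143 transcripts for the 10 genes. Of these, 37 (25.9%) are classed as retained intron and 19 (13.3%) as targets of nonsense-mediated decay, against 19.8% and 10.6% over all genes tested. *CLK1* has 8 retained-intron transcripts of 15, *CLK4* 7 of 15, *CLK3* 8 of 27 and *CLK2* 0 of 7. Outside the CLK family *SON* has 6, *SRPK1* 4, *SRPK2* 2, *PRP4K* and *PPIG* 1 each and *PNISR* 0. Unspliced transcripts are known for some CLK genes, and counts per gene do not separate them from coding transcripts. Exons of *CLK3*, *SON*, *SRPK1* and *SRPK2* overlap genes on the opposite strand (*EDC3*, *DONSON* and *GART*, *LHFPL5* and *KMT2E*), and use of strand in counting is not given in the sources used here.

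Around these genes, 6 lists of other pathway members were examined, 91 genes of which 89 were tested. By edgeR, 0 had an adjusted p below the threshold, as in limma-voom (0), with 1 in DESeq2 (*PRPF38B*). In edgeR, 17 (19.1%) had an unadjusted p under 0.05, 12 lower and 5 higher. The share over all genes tested was 11.1%, made of 5.17% lower and 5.91% higher.

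Of the substrates, 14 SR proteins were tested, 6 lower and 8 higher in PON1-OE (median log2FC 0.051, against −0.0025 over all genes). *TRA2A*, a splicing activator, had 11.8, 13.3 and 11.9 CPM in NC libraries and 16.3, 15.7 and 16.5 CPM in PON1-OE, with no overlap. Its log2FC of 0.39 (standard error 0.097) had an adjusted p of 0.0820 in edgeR, which ranged from 0.0374 to 0.347 over the alternatives that gave one (DESeq2 gave none). Its paralog *TRA2B* (log2FC 0.12) had a higher value, and *SRSF4* (−0.15) and *SRSF11* (−0.12) lower values, all with an unadjusted p under 0.05. The sign of the list's median changed to −0.0094 without NC replicate 2.

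Among 32 other RS-rich and SR-related proteins, 29 had a log2FC below 0 (90.6%, against 51% of all genes), and the median was −0.061. All 7 with an unadjusted p under 0.05 were lower, and in 8 the PON1-OE libraries lay below all NC libraries, an arrangement of 7.74% of all genes tested (25 to 28 were below 0 without single libraries, and 29 with GC content and length taken out). *PRPF38B*, a spliceosomal protein, had 72.2, 70.9 and 74.4 CPM in NC libraries and 61.5, 64.2 and 61.1 CPM in PON1-OE. The groups were well apart, with a log2FC of −0.22 (standard error 0.053) and an adjusted p of 0.0613 in edgeR, which ranged from 0.0269 to 0.347 over all alternatives. *SRRM1* (log2FC −0.16), a splicing coactivator, and *RSRC2* (−0.10) were next. *NKTR*, *RBM25*, *SCAF11* and *SREK1* were the other 4, named after their values were seen. *NKTR*, like *PPIG* a cyclophilin with an RS-rich tail, had a log2FC of −0.20.

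**Figure D5:**
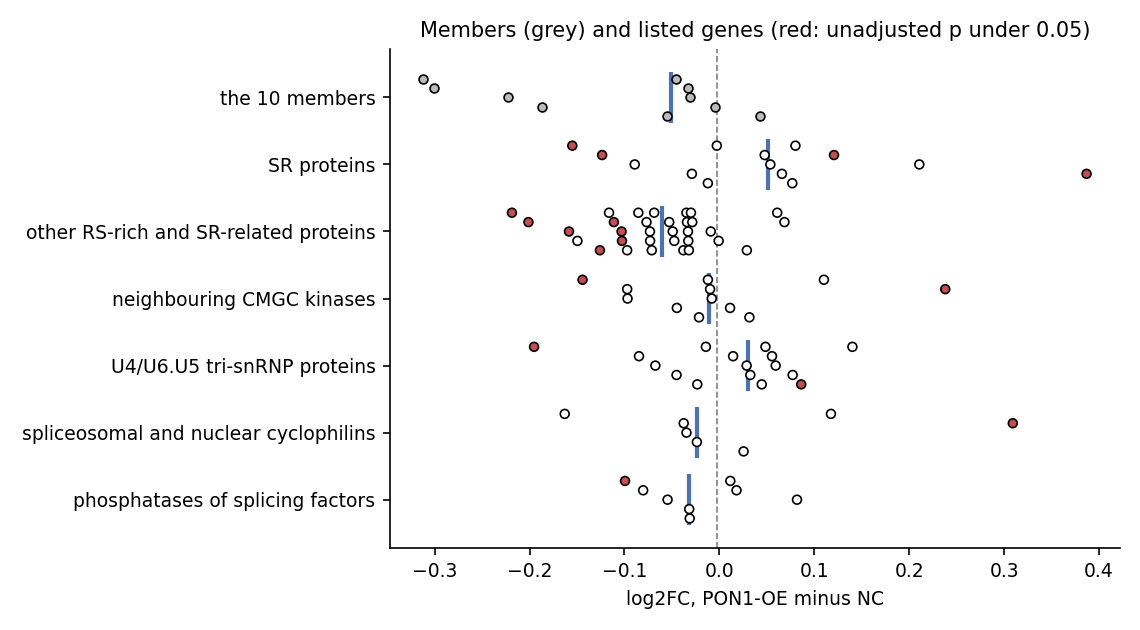
Fitted log2FC (x axis, PON1-OE minus NC) of the 10 members (grey) and of the listed genes tested (1 point per gene, red with an unadjusted p under 0.05), with the median of each row as a blue bar and the median of all genes tested as a dashed line. Most RS-rich and SR-related proteins lie left of 0, and SR proteins lie on both sides.

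The remaining lists lay closer to 0. Of 12 tested kinases of the DYRK, HIPK and CDK families (14 kinases were listed, and *SRPK3* and *HIPK4* did not pass the filter) 8 were lower (median −0.011). *CDK12*, which phosphorylates RNA polymerase II, was lower (log2FC −0.14, unadjusted p = 0.00577 and adjusted p = 0.217 in edgeR). *CDK11A* had a log2FC of 0.24 (adjusted p = 0.181) and its near-identical copy *CDK11B* one of −0.097 (adjusted p = 0.560). All 6 values of both copies were estimates that are not whole, and their split between the copies is uncertain.

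The tri-snRNP proteins, the particle on which PRP4K acts, had 6 of 16 lower (median 0.031). *PRPF6* was at 170, 173 and 175 CPM in NC libraries and 181, 188 and 182 CPM in PON1-OE, with no overlap, a log2FC of 0.086 and an adjusted p of 0.425 in edgeR. *SNRNP27*, which shares exonic bases with *MXD1* on the same strand, had a log2FC of −0.20 (adjusted p = 0.372). Of 7 nuclear and spliceosomal cyclophilins, relatives of PPIG, 4 were lower (median −0.024), and *PPIL3* had a log2FC of 0.31 (adjusted p = 0.284). Of 8 genes for phosphatases and phosphatase regulators, 5 were lower (median −0.032), with *PPP1CC* at a log2FC of −0.099 (adjusted p = 0.415).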

How the data were processed

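RNA-seq of 6 HCCLM3 libraries, 3 PON1-OE and 3 NC, was analyzed. The authors deposited 1 table of estimated counts per gene, not normalized, in which 10.5% of values were not whole. The submitters' processing notes name Bowtie2 2.2.8, HISAT2, StringTie 1.3.1 and DESeq2. The counting tool, genome build and annotation are not given in the sources used here. Columns were assigned to libraries by name.

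Estimated counts were rounded, filtered with filterByExpr (11958 genes), scaled by TMM and fitted with edgeR 4.0.16 (R 4.3.3) by the quasi-likelihood test, without covariates, with Benjamini-Hochberg adjustment over the genes tested. DESeq2 1.42.0 and limma 3.58.1 were alternatives, as were other scaling and filters, unrounded counts, single libraries left out, and GC content and length taken out of log2 CPM (prior count 2) by natural splines (5 degrees of freedom each). Scripts were tested on simulated data. Positions, lengths and GC content came from GENCODE v29, which held 11891 of the genes tested, and were matched by Ensembl identifier. Overlaps needed at least 50 shared exonic bases. Promoters came from RefSeq. The paper's 1.5-fold threshold was an alternative.

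The members and lists were chosen with earlier results of these data known. Genes named from the lists were up to 3 in each direction with the smallest unadjusted p under 0.05 and up to 6 with an adjusted p under 0.05. Pairs of libraries of a group differed by more than sampling noise (chi-square per degree of freedom 2.11 to 4.11).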

Additional observations from a re-analysis of the deposited data

How the results depend on the processing

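The count of genes with an adjusted p under 0.05, 81 in edgeR, was 177 without the filter on low counts, 6 with the fold threshold added, 1325 with unadjusted p, and 11 to 103 with single libraries left out. Leaving out NC replicate 1 gave 34, NC replicate 3 gave 11, PON1-OE replicate 1 gave 44 and PON1-OE replicate 3 gave 18. The count of 2 members was 0 in DESeq2 and with the fold threshold, and 0 to 2 with single libraries left out. The count of 0 listed pathway genes was 1 in DESeq2 (*PRPF38B*), 1 with GC content and length taken out (*TRA2A*), 2 without the filter (both), 0 to 1 with single libraries left out (1, *PRPF38B*, without PON1-OE replicate 2), and 17 with unadjusted p. In the other settings, apart from the replicate block given next, these counts stayed within 1.5 times. With the replicate number as a block, 40 genes and 0 members were called, and 0 listed genes. Deviations of same-numbered libraries from the group means correlated at 0.017, −0.023 and 0.020 over genes. Those of differently numbered libraries correlated at −0.094 to 0.071. Whether same-numbered libraries shared a batch is not given in the sources used here and was not tested. Each member's log2FC moved by less than the SD between replicates in all 14 alternatives, and no named list gene changed sign. At these depths counting error was 10.4% at the lowest count of *CLK4*.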
